A study of Mus musculus with 4 samples.

Results

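The Ly6c2-high Plac8 cells of mouse skin wounds numbered 563, or 2.84% of the 19827 CD45+ cells that passed the filter in 4 single-cell libraries. They were chosen by measured values, and the conditions included at least 3 UMIs of Ly6c2 and at least 3 of Plac8, 0 UMIs of Hdc, Cd3e and Ncr1, and fewer than 10 of C1qa, C1qb and C1qc together. A UMI (unique molecular identifier) stands for 1 captured mRNA molecule. Ly6c2 encodes the surface protein Ly6C of classical monocytes, and Plac8 is a small cysteine-rich protein of monocytes, neutrophils and plasmacytoid dendritic cells. Hdc, Cd3e, Ncr1 and the C1q genes kept out mast cells, basophils and some neutrophils (Hdc), T cells (Cd3e), NK cells (Ncr1) and complement-expressing resident-like macrophages (C1q).

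Classical Ly6C-high monocytes are made in the bone marrow, leave it through the chemokine receptor CCR2 and enter injured tissue from the blood. In wounds they carry antimicrobial and inflammatory products and can mature into macrophages or into antigen-presenting cells with MHC class II on their surface. Plasmacytoid dendritic cells, a separate lineage known for interferon production, also carry Ly6C and Plac8.

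The study compared wounds of Angptl4+/+ and Angptl4-/- mice, with the strain C57BL6/J in the labels of all 4 samples and an age of 8 weeks, at days 1 and 5 after wounding (dpw, days post wounding). Angptl4 encodes a secreted protein that inhibits lipoprotein lipase. Wounds were 3 mm punches through the back skin with no other treatment, and live CD45+ cells, that is leukocytes, were sorted from the digested tissue. Each of the 4 conditions gave 1 droplet library made with the 10x Chromium 3' V3 kit. The Angptl4-/- mice lacked the gene in every tissue and came from another source colony than the Angptl4+/+ mice, so the effect of the allele and that of the colony cannot be told apart. The number of mice behind a library was not stated in the sources used here, and with 1 library per condition no test between conditions was made. All intervals below are 95% intervals of counting error only. Where 4 values follow each other, they are those of Angptl4+/+ and then Angptl4-/- wounds at 1 dpw, followed by the same pair at 5 dpw.

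The libraries held the deleted gene as labelled. Angptl4 had 47 UMIs over all passing cells of the Angptl4+/+ library of 1 dpw and 78 in that of 5 dpw, and 0 in both Angptl4-/- libraries, while the Ly6c2-high Plac8 cells held 3 UMIs of it at 1 dpw and 0 in the other 3 libraries. The methods of the study describe male mice, but Xist, the transcript of the inactive X chromosome of female cells, was found in 123 of 129 and 98 of 101 of these cells at 1 dpw and in 166 of 173 and 151 of 160 at 5 dpw, in Angptl4+/+ and Angptl4-/- wounds respectively. Summed over 4 Y-linked genes the same cells held 0, 0, 0 and 1 UMI. The 4 libraries were alike in this, against the stated sex. Pairs of libraries shared between 4 and 15 cell barcodes among passing cells and 0 among the Ly6c2-high Plac8 cells.

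At 1 dpw the rule took 129 of 5346 passing cells in Angptl4+/+ wounds, a share of 2.41% (2.02 to 2.86), and 101 of 4798 in Angptl4-/- wounds, a share of 2.11% (1.72 to 2.55). At 5 dpw it took 173 of 4945 cells, or 3.50% (3.00 to 4.05), in Angptl4+/+ and 160 of 4738, or 3.38% (2.88 to 3.93), in Angptl4-/- wounds. Both libraries of 5 dpw were above both of 1 dpw in this share. Before the other conditions of the rule, the order was the reverse. At least 3 UMIs of both Ly6c2 and Plac8 were found in 489 of 5346 and 426 of 4798 passing cells at 1 dpw. At 5 dpw they were found in 413 of 4945 and 296 of 4738. The part of the other conditions in the higher share at 5 dpw was not tested. The share of chosen cells differed by 1.09 percentage points (0.432 to 1.75) between 5 and 1 dpw in Angptl4+/+ wounds and by 1.27 (0.618 to 1.94) in Angptl4-/- wounds. The genotypes differed by -0.308 points (-0.888 to 0.277) at 1 dpw and by -0.122 (-0.850 to 0.609) at 5 dpw, Angptl4-/- minus Angptl4+/+, and both intervals included 0. Neutrophils are here the cells with at least 2 UMIs of Csf3r, at least 20 of S100a8 and S100a9, fewer than 3 of Ly6c2 and 0 of Adgre1 and C1q. This definition took 1806, 1622, 1394 and 1980 cells, a smaller share of each library than the study's neutrophil clusters. By the study's clustering, neutrophils thus remained among the other cells. Among the cells outside this neutrophil definition, the shares were 3.64%, 3.18%, 4.87% and 5.80%. The genotypes then differed by -0.464 points (-1.33 to 0.414) at 1 dpw and by 0.929 (-0.182 to 2.07) at 5 dpw, so the sign at 5 dpw was the opposite one, with intervals that again included 0. Per 100 cells with at least 10 C1q UMIs there were 106, 88.6, 23.0 and 54.8 chosen cells. A fixed minimum of UMIs is met more easily in a deeper cell, while a maximum or a demand for 0 UMIs is met less easily. Passing cells had median totals of 4976 and 4815 UMIs at 1 dpw against 3873 and 3736 at 5 dpw. When cells with fewer than 4000 UMIs were left out, the others thinned to that depth and the rule applied with lowered thresholds, among them at least 2 UMIs of Ly6c2 and Plac8 and fewer than 5 of C1q, the rule took 130 of 3745 and 87 of 3188 cells at 1 dpw and 166 of 2352 and 156 of 1983 at 5 dpw, shares of 3.47%, 2.73%, 7.06% and 7.87%. The cells they were taken from thus fell from 4945 to 2352 and from 4738 to 1983 at 5 dpw, a larger loss than at 1 dpw.

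**Figure D1:**
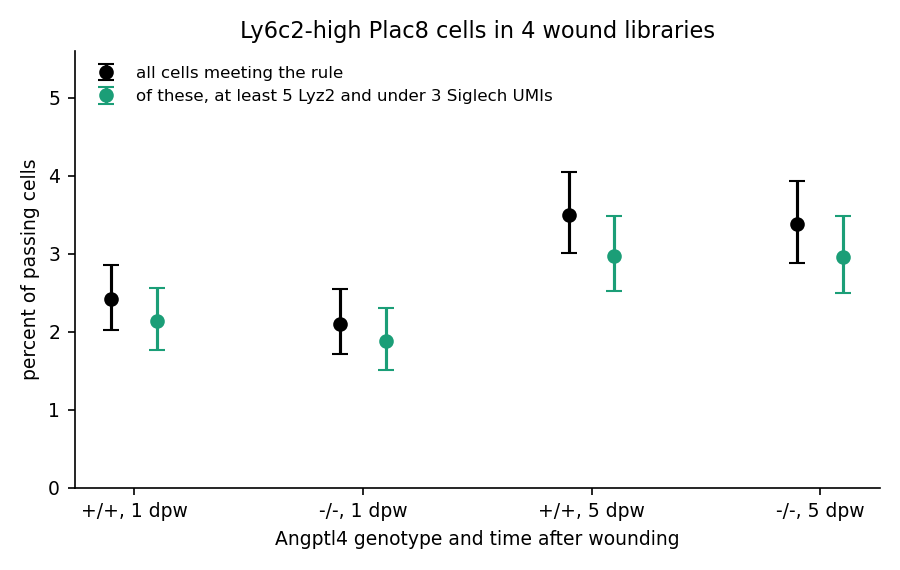
Share of passing cells (percent, vertical axis) taken by the rule in each of the 4 libraries, for all chosen cells and for those of them with at least 5 Lyz2 and fewer than 3 Siglech UMIs, with exact 95% binomial intervals as bars. The libraries of 5 dpw, at 3.50% and 3.38%, sit above those of 1 dpw, at 2.41% and 2.11%, and the intervals of the genotypes overlap at each time.

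The chosen cells were deep. Their median UMI totals were 14243, 14269, 10019 and 10971, with medians of 3650, 3591, 2878 and 3067 detected genes. Mitochondrial genes took a median of 3.44%, 3.31%, 3.83% and 3.89% of the UMIs in the same order. Summed over the cells, the libraries gave 1864687, 1433469, 1733910 and 1812967 UMIs, on which the levels below rest as CPM, counts per 1000000 UMIs.

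The values that made the choice are given as a description. Of all passing cells, 489, 426, 413 and 296 had at least 3 UMIs of both Ly6c2 and Plac8 (Angptl4+/+ and Angptl4-/- at 1 dpw, then at 5 dpw), and the chosen cells were 26.4%, 23.7%, 41.9% and 54.1% of them. The Hdc condition was not met by 247, 255, 109 and 75 of these cells and the C1q condition by 47, 32, 129 and 42. Ly6c2 had a median of 12 and 13 UMIs per chosen cell at 1 dpw and 13 and 17 at 5 dpw, with highest values of 123, 64, 158 and 101. Plac8 had medians of 53, 41, 31 and 40.5 UMIs. Ly6c2 shares 20.8% of its 31-base words, and 43.8% of those in its last 500 bases, where a 3′ kit reads, with its neighbour Ly6c1, which had 1, 4, 4 and 2 UMIs in the chosen cells. At the edge of the rule, 31 chosen cells had exactly 3 Ly6c2 UMIs and 37 cells missed it with 2, while 7 had exactly 3 Plac8 UMIs and 11 missed it with 2.

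Most of these cells carried the genes of a classical monocyte, but not all did. Lyz2, the lysozyme of myeloid cells, was at 18191 and 19442 CPM at 1 dpw and at 17341 and 19142 CPM at 5 dpw, and stood 1.95 to 2.61 log2 units above the other passing cells of the same library. Chil3, a secreted chitinase-like protein of marrow-derived monocytes, was at 1886, 2037, 1139 and 1462 CPM and 2.75 to 3.78 log2 units above the other cells. Ccr2, the receptor of the exit from the marrow, was at 1459, 1773, 1459 and 1448 CPM, and Ms4a4c, a tetraspanning membrane protein, at 906, 853, 1042 and 996 CPM. The monocyte label thus held for the sum of the cells. Ranked over 8107 genes by the lowest of the 4 ratios to other cells, however, the leading genes were Dntt, Siglech, Ccr9, Cox6a2, Atp2a1, Pacsin1, Arhgef37, Ly6d, Cacna1e, Iglc3, Upb1 and Cd300c. Among these, Siglech is the sialic-acid-binding lectin and Ccr9 a chemokine receptor of plasmacytoid dendritic cells, Dntt is the terminal transferase of lymphoid progenitors, and Ly6d is a lymphoid surface protein.

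Most of these leading genes were found in few cells, while Arhgef37 also led in the cells with Lyz2 described below. The cells with at least 3 Siglech UMIs numbered 5 and 3 at 1 dpw and 13 and 15 at 5 dpw, 36 in all. Each of the 36 held at most 1 UMI of Lyz2, all held Siglech, Tcf4 (a transcription factor of the plasmacytoid lineage) and Bst2, 34 held Ccr9, 31 Ly6d and 22 Dntt, while 1 held Chil3 and 2 held Csf1r, the receptor for the monocyte growth factor CSF1. Ccr2 was found in 27 of them, at 373 CPM, and Ms4a4c in 5. Another 36 cells without that much Siglech also had fewer than 5 UMIs of Lyz2. Of these, 26 held Cd74, 27 Ms4a4c, 24 Ccr2, 21 Csf1r, 21 Klrd1 (an NK-cell lectin), 19 Flt3 (a dendritic-cell growth factor receptor), 17 Cd7 and 0 Dntt, while 26 held Tcf4, 20 Irf8, 12 Il7r and only 4 Chil3. The 36 Siglech cells thus went against the monocyte label in all of these monocyte genes but Ccr2. The other 36 were mixed, with Ms4a4c, Ccr2 and Csf1r in many and Chil3 in few. Both sets together were 11.6% and 10.9% of the chosen cells at 1 dpw and 15.0% and 12.5% at 5 dpw.

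The remaining 491 cells, with at least 5 UMIs of Lyz2 and fewer than 3 of Siglech, are called Lyz2-positive below, a division made after the values were seen. They numbered 114 and 90 at 1 dpw and 147 and 140 at 5 dpw, and Lyz2 had medians of 297, 332, 176 and 244 UMIs per cell. Among the 20 genes that led the same ranking in them were Arhgef37, a guanine nucleotide exchange factor (4.16 to 5.19 log2 units above other cells), Chil3 (2.86 to 3.98), Fcnb, a secreted ficolin of marrow myeloid cells (2.67 to 4.97), Prtn3, the granule protease proteinase 3 (2.54 to 4.81), Hpgd, the prostaglandin-degrading enzyme (2.81 to 3.92), Cyp39a1 (3.23 to 4.67), Lyz2 (2.20 to 2.75) and Ms4a6c (2.16 to 2.66).

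The marker lists described the mixture in each library. Classical monocyte markers summed to 8278 and 8961 CPM at 1 dpw and to 5752 and 6305 CPM at 5 dpw, with Chil3 or Ccr2 giving the most UMIs and no gene of the 9 at 0. Macrophage markers summed to 2156, 1526, 4884 and 3806 CPM, mostly Apoe. Neutrophil markers summed to 1887, 1263, 554 and 413 CPM, led by S100a8 or S100a9, with Ly6g at 0 in both libraries of 5 dpw. The macrophage sum was thus higher and the neutrophil sum lower at 5 than at 1 dpw in both genotypes. Plasmacytoid markers summed to 201, 120.0, 342 and 483 CPM, with the most UMIs from Siglech, and those of other dendritic cells to 87.4, 51.6, 143 and 170.4 CPM. Markers of Ly6C-low monocytes summed to 532, 509, 747 and 819.7 CPM, with the most UMIs from Nr4a1 or Cx3cr1. Those of myeloid progenitors summed to 154, 172, 27.1 and 26.5 CPM, with the most UMIs from Prtn3 and with Ms4a3 at 0 in every library.

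T and NK cell markers summed to between 34.9 and 104 CPM, nearly all of it Klrd1, with Trac at 0 in every library. B cell markers summed to between 133 and 258 CPM, with the most UMIs from Ighm, and with Ms4a1 and Pax5 at 0. Mast cell and basophil markers reached at most 4.61 CPM, all or nearly all Kit, with Cpa3 and Fcer1a at 0. Non-immune markers reached at most 32.0 CPM, with the most UMIs from Pecam1 in the library at that level and the keratins Krt14 and Krt5 at 0. In that library, of Angptl4-/- wounds at 5 dpw, Pecam1 was at 16.0 CPM and only these 2 of the 7 genes were at 0. Erythroid and platelet markers were at 41.8, 6.98, 2.31 and 1.65 CPM, and 58 of the UMIs of the platelet chemokine Ppbp at 1 dpw in Angptl4+/+ wounds lay in 1 cell. The summed levels of these lists were thus low beside those of the classical monocyte markers. Low T, NK, mast cell and basophil levels follow in part from the rule. It asked for 0 UMIs of Cd3e, Ncr1 and Hdc.

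**Figure D2:**
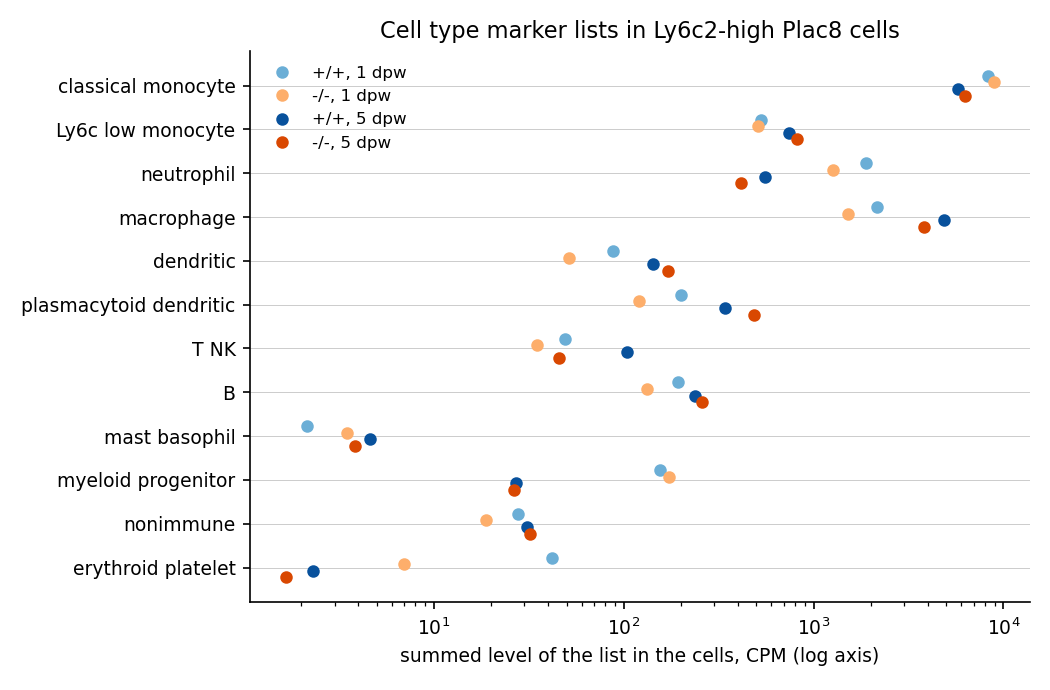
Summed level of each marker list (CPM, log axis) in the Ly6c2-high Plac8 cells of each library. Classical monocyte markers lie between 5752 and 8961 CPM, macrophage markers between 1526 and 4884 CPM and plasmacytoid markers between 120.0 and 483 CPM.

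Cells of the same libraries that resemble them differed in plain ways, given as a description since the rule used some of the same genes. Against C1q-high cells (122, 114, 753 and 292 cells), the folate receptor Folr2 (-6.10 to -3.84) and the carbonyl reductase Cbr2 (-6.44 to -3.27) were lower in the chosen cells, with the log2 ratios over the 4 libraries in parentheses. Against cells with Cd209a (10, 8, 60 and 49 cells), Apoe, Lyz2 and Adgre1 were higher, Lyz2 by 3.30 to 4.49 log2 units.

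The first comparison asks what differed between the times. Among genes with at least 50 UMIs over the pair of libraries, a gene was called where its CPM differed at least 2-fold and the interval of the ratio did not reach equality. In Angptl4+/+ wounds 131 of 6655 genes were higher at 5 dpw (1.97%) and 161 lower (2.42%). In Angptl4-/- wounds 165 of 6281 were higher (2.63%) and 108 lower (1.72%). The calls shared by both genotypes were 57 higher genes (55.3% of the 103 called in Angptl4+/+ and tested in both, 37.7% of 151 in Angptl4-/-) and 41 lower genes (30.1% of 136 and 39.0% of 105), and no gene was called in opposite directions. A pair of log2 ratios between times gives Angptl4+/+ before Angptl4-/- wounds. In the Lyz2-positive cells alone the calls were 135 higher and 160 lower in Angptl4+/+ and 131 higher and 100 lower in Angptl4-/- wounds. In those of them at 0 UMIs of H2-Aa, an MHC class II gene described below, 81 were higher and 162 lower of 4924 in Angptl4+/+ wounds. In Angptl4-/- wounds 58 were higher and 122 lower of 4439 there.

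MHC class II genes rose from 1 to 5 dpw. MHC class II molecules present peptides to CD4+ T cells, and their alpha and beta chains, the chaperone Cd74 and the peptide-loading H2-DM proteins are transcribed together under the coactivator CIITA. Of the 9 genes listed, 7 had enough UMIs, and 6 of these were higher at 5 dpw in Angptl4+/+ wounds (median log2 ratio 2.02) and 5 in Angptl4-/- wounds (1.50), beside medians over all genes tested of -0.07 and -0.05. In the genotype comparison 0 of the 7 were called at either time, with medians of 0.20 at 1 dpw and -0.41 at 5 dpw. Between times, the markers of other dendritic cells gave 0 of 3 in Angptl4+/+ wounds (median 0.34). In Angptl4-/- wounds 2 of 3 were higher at 5 dpw, Cd209a and Ccl22 (2.36). The part of dendritic cells in the MHC class II rise was not tested.

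H2-Aa, the alpha chain of I-A, was at 561 CPM in Angptl4+/+ and 631 CPM in Angptl4-/- wounds at 1 dpw and at 2823 and 2121 CPM at 5 dpw. Both libraries of 5 dpw lay above both of 1 dpw, by 2.33 (2.23 to 2.43) log2 units in Angptl4+/+ and 1.75 (1.65 to 1.86) in Angptl4-/- wounds. Its partner H2-Ab1 was at 564, 617, 2854 and 1928 CPM and rose by 2.34 and 1.64 log2 units. H2-Eb1, the beta chain of I-E, was at 377, 434, 2095 and 1528 CPM and rose by 2.47 and 1.82. The chains moved as a set in both genotypes. Cd74 was at 1464, 1696, 5947 and 4794 CPM (2.02 and 1.50) and Ciita at 39.1, 46.0, 127 and 121 CPM (1.70 and 1.39). H2-DMb1 rose by 1.56 in Angptl4+/+ wounds and stood at 0.56, short of the 2-fold call, in Angptl4-/- wounds. H2-DMa stood at 0.90 and 0.50.

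The sequences before the start sites of 3 of these genes are printed because they held both of the promoter elements searched for. The X and Y boxes of MHC class II promoters bind the RFX and NF-Y factors on which CIITA sits. The letters CTNGNAAC, chosen after these promoters were seen as a common form of the start of the X box, and ATTGG, the core of the Y box, were searched on both strands of the 250 bases before each start in RefSeq (GRCm38.p6). They occurred in 10.9% and 33.8% of 32851 promoters, and both in 3.75%. Of the 9 genes, 6 matched the table, and all 6 held ATTGG in at least 1 of their start sites, while H2-DMb1, H2-Aa and H2-Eb1 held both. The 150 bases before the start are given 5′ to 3′ on the gene's strand, with the matches in capitals, for H2-DMb1 (chr17:34153041-34153190, plus strand), H2-Aa (chr17:34287824-34287973, minus strand) and H2-Eb1 (chr17:34305717-34305866, plus strand).
H2-DMb1: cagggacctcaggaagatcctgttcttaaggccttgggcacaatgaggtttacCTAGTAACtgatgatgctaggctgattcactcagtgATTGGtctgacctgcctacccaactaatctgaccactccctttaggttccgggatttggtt
H2-Aa: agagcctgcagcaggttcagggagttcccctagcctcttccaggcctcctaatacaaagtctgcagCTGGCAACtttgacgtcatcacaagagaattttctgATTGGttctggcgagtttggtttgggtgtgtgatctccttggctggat
H2-Eb1: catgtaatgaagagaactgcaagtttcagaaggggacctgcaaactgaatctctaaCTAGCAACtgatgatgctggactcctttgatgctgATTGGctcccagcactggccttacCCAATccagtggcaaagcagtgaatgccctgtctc
In all 3 the X-box letters lie before the ATTGG, and H2-Eb1 has a further match as CCAAT, its reverse complement. A match of letters is a description and not a shown binding site. H2-Ab1, Cd74 and Ciita were not among the matched promoters.

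More Lyz2-positive cells carried MHC class II at 5 than at 1 dpw. Among Lyz2-positive cells, H2-Aa was at 0 UMIs in 95 of 114 (83.3%, 75.2 to 89.7) and 67 of 90 (74.4%, 64.2 to 83.1) at 1 dpw and in 66 of 147 (44.9%, 36.7 to 53.3) and 66 of 140 (47.1%, 38.7 to 55.8) at 5 dpw. At least 10 UMIs were found in 12 (10.5%) and 11 (12.2%) cells at 1 dpw and in 56 (38.1%) and 47 (33.6%) at 5 dpw. Cells with many H2-Aa UMIs were thus more frequent in both libraries of 5 dpw. After thinning each Lyz2-positive cell to 2000 UMIs, the share with an H2-Aa UMI was 7.89% and 13.5% at 1 dpw and 47.3% and 38.6% at 5 dpw. Neutrophils of the same libraries, which should lack the gene, gave 0.954%, 0.757%, 5.75% and 4.64% at the same thinned depth, below the chosen cells in each library.

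**Figure D3:**
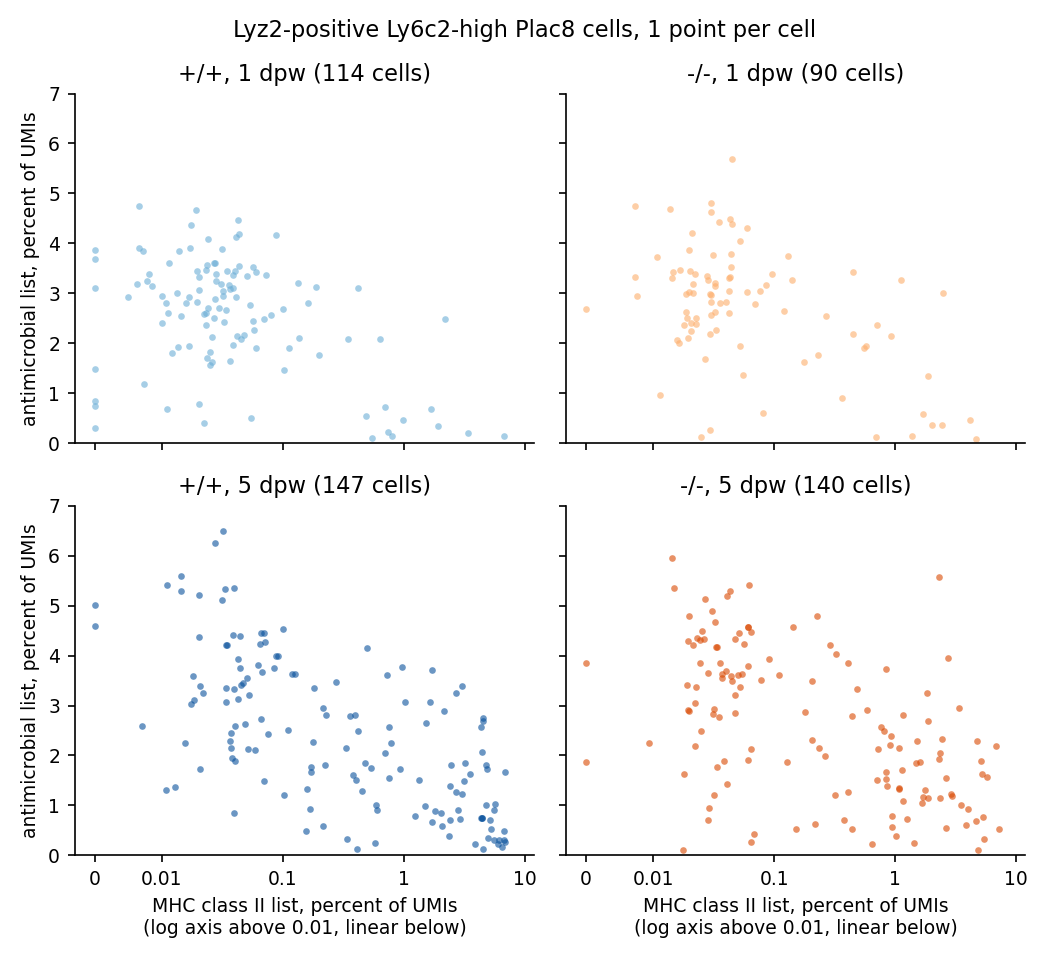
Share of each Lyz2-positive cell's UMIs from the antimicrobial list (percent, vertical axis) against that from the MHC class II list (percent, horizontal axis, log above 0.01 and linear below), 1 panel per library and 1 point per cell. Antimicrobial shares tend to be lower in cells with more MHC class II, with exceptions in single cells and with Spearman's rho from -0.28 at 1 dpw to -0.65 at 5 dpw in Angptl4+/+ wounds.

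Cells with H2-Aa differed from those without in their other genes, in a division made on H2-Aa after the values were seen. Lyz2 was at 21719, 22654, 29013 and 29485 CPM in cells at 0 H2-Aa UMIs and at 7150, 8570, 12072 and 13895 CPM in cells with at least 10. Chil3 was at 2362, 2584, 2061 and 2611 CPM against 368, 251, 459 and 472 CPM. Both genes were lower in the H2-Aa cells of every library. Ccr2 differed far less, at 1602, 1859, 1557 and 1642 CPM against 1357, 1664, 1578 and 1547 CPM. Apoe was higher in the H2-Aa cells in 3 libraries (995 against 2666, 2759 against 7539 and 2062 against 5227 CPM) and lower in the Angptl4-/- library of 1 dpw (1002 against 628 CPM). In the H2-Aa cells Cd209a, a dendritic-cell marker, was higher in every library (6.58, 0, 7.97 and 28.7 against 155, 69.1, 23.98 and 82.3 CPM). So was Itgax, the integrin CD11c (1.46, 3.001, 12.7 and 18.6 against 26.6, 43.9, 53.1 and 29.6 CPM). Flt3 was higher in 3 libraries and lower in the Angptl4-/- library of 5 dpw (18.6 against 9.88 CPM). The part of dendritic cells in these differences was not tested. Per cell, the MHC class II and antimicrobial shares of UMIs correlated negatively across Lyz2-positive cells, with Spearman's rho of -0.28 (114 cells), -0.30 (90), -0.65 (147) and -0.51 (140). These points share a library and a total, since both are shares of the same UMIs.

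Single genes of maturing macrophages also rose. Axl, a receptor tyrosine kinase for the uptake of dying cells, was at 5.90 and 4.19 CPM at 1 dpw and at 73.8 and 54.6 CPM at 5 dpw, a rise of 3.65 (2.76 to 4.68) and 3.71 (2.53 to 5.19) log2 units. It was found in 10 and 5 cells at 1 dpw and in 58 and 42 at 5 dpw, so the groups of libraries were well apart. Apoe, the apolipoprotein of macrophages, was at 1283, 1084, 4046 and 3281 CPM (1.66 and 1.60). Tmem119, a membrane protein best known from microglia, was at 3.75, 4.88, 28.8 and 30.9 CPM (2.94 and 2.66). Lpl, the lipoprotein lipase that Angptl4 protein inhibits, was at 51.5 and 18.1 CPM at 1 dpw and at 168 and 175 CPM at 5 dpw, a rise of 1.70 and 3.27. Pltp, a phospholipid transfer protein, was at 58.4, 27.9, 169 and 185 CPM (1.53 and 2.73), and Tmem37 at 14.5, 6.98, 45.0 and 65.6 CPM (1.64 and 3.23). For all 3 the Angptl4-/- library of 1 dpw was the lowest of the 4. The difference between the rises was not tested. In Lyz2-positive cells at 0 H2-Aa UMIs, Lpl was at 67.2, 22.0, 271 and 37.3 CPM. Its ratio there was 2.01 in Angptl4+/+ and 0.76 (-0.12 to 1.65) in Angptl4-/- wounds. Pltp stood there at 1.83 and, in Angptl4-/- wounds, at 1.33 (-0.03 to 2.79). With 22 and 26 UMIs of Lpl and 8 and 14 of Pltp, the Angptl4-/- pair was under the minimum of 50, so neither could be called in it. Tmem119 and Tmem37 had fewer than 50 UMIs in these cells in each genotype and so could not be called there, with Tmem37 at 2.79 and 1.71. Of 18 tested macrophage maturation genes, 3 rose and 0 fell in Angptl4+/+ wounds (median -0.01) and 5 rose and 1 fell in Angptl4-/- wounds (0.14). In the cells without H2-Aa the balance in Angptl4-/- wounds turned, with 2 higher and 3 lower of 16 (-0.16), against 3 higher and 1 lower of 17 in Angptl4+/+ wounds (-0.03). Over all genes tested the balance in Angptl4-/- wounds turned too, from 165 higher and 108 lower to 58 higher and 122 lower of 4439. Of the 5 tested uptake receptors, 3 rose in Angptl4+/+ (Axl, Stab1 and Itgb5) and 1 in Angptl4-/- wounds (Axl). In the cells without H2-Aa, 0 of 3 were called in Angptl4+/+ wounds (median 0.70), and in Angptl4-/- wounds C5ar1, a complement receptor, was lower (-1.56) and 0 were higher (-0.27). Axl was not among these 3. Its 4 and 29 UMIs in Angptl4+/+ and 1 and 17 in Angptl4-/- wounds were under the minimum of 50. The ratios of Axl in these cells were 3.98 (2.47 to 5.95) and 4.61 (1.93 to 9.99).

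Antimicrobial and granule genes fell from 1 to 5 dpw. Of the 8 tested antimicrobial genes, 5 fell in Angptl4+/+ (median -1.49) and 6 in Angptl4-/- wounds (-1.57), and none rose. Prtn3 was at 144 and 156 CPM at 1 dpw and at 23.1 and 21.5 CPM at 5 dpw (-2.64 and -2.86), in 80 and 57 cells against 23 and 26. Neutrophils of the same libraries held it at 1.54, 1.17, 2.57 and 1.49 CPM. Hp, the haemoglobin-binding haptoglobin, was at 1384, 1303, 410 and 469 CPM (-1.75 and -1.47), and in neutrophils, where it was at 1191, 1132, 1346 and 1238 CPM, it did not move this way. Lrg1, a secreted leucine-rich glycoprotein, was at 146, 263, 16.1 and 10.5 CPM (-3.18 and -4.65) against 829, 891, 1289 and 1114 CPM in neutrophils. For these 3 genes the drop was thus found in the chosen cells and not in the neutrophils beside them. Saa3, an acute-phase protein, was at 179, 303, 54.2 and 1.10 CPM (-1.72 and -8.10), and 62 of its UMIs in Angptl4+/+ wounds at 5 dpw lay in 1 cell. In Lyz2-positive cells without H2-Aa it stood at -0.69 (-1.04 to -0.36) in Angptl4+/+ wounds, short of the 2-fold call, and at -8.16 in Angptl4-/- wounds.

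For other falling genes neutrophils held far more and fell too. Lcn2, the iron-sequestering lipocalin, was at 182 and 167 CPM at 1 dpw and at 5.77 and 7.17 CPM at 5 dpw (-4.98 and -4.54), with 3407, 3492, 1034 and 863 CPM in neutrophils. Wfdc21, a whey acidic protein, was at 110.5, 88.6, 8.07 and 5.52 CPM (-3.77 and -4.01), with 1567, 1903, 369 and 481 CPM in neutrophils. S100a8, a calcium-binding alarmin, was at 686, 506, 115 and 97.1 CPM (-2.57 and -2.38), with 74547, 85626, 37659 and 44211 CPM in neutrophils. These 3 were thus lower at 5 dpw in the chosen cells and in neutrophils, and the part of free or attached neutrophil RNA in it was not tested. Mmp8, neutrophil collagenase, was at 207, 232, 35.8 and 64.0 CPM (-2.53 and -1.86). Of the 7 tested neutrophil markers, 5 fell in each genotype, with medians of -2.53 and -1.86.

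Most classical monocyte markers were not called between times. Of the 9 classical monocyte markers, Hp and Vcan fell in both genotypes and the other 7 were not called, with list medians of -0.73 and -0.48. In cells without H2-Aa the medians were -0.20 and -0.18, and Hp in Angptl4-/- wounds was short of the 2-fold call (-0.92). Vcan, the matrix proteoglycan versican, was at 561, 795, 197 and 319 CPM (-1.51 and -1.31). Chil3 stood at -0.73 and -0.48 and Ccr2 at 0.00 and -0.29. Atp11a, a phospholipid flippase, was at 48.3, 78.8, 14.4 and 15.4 CPM and fell by 1.74 and 2.35. Cd38, an NAD-consuming ectoenzyme, fell by 2.59 in Angptl4-/- wounds (56.5 to 9.38 CPM) and stood at -0.99 in Angptl4+/+ wounds. Ube2c, a mitotic ubiquitin-conjugating enzyme, was at 54.2, 22.3, 2.31 and 6.62 CPM, and was called only in Angptl4+/+ wounds (-4.55), since the pair of Angptl4-/- libraries held fewer than 50 UMIs. Of 5 tested cell cycle genes it alone was called in Angptl4+/+ wounds (median -0.33), and 0 of 4 in Angptl4-/- wounds (-0.27).

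**Figure D4:**
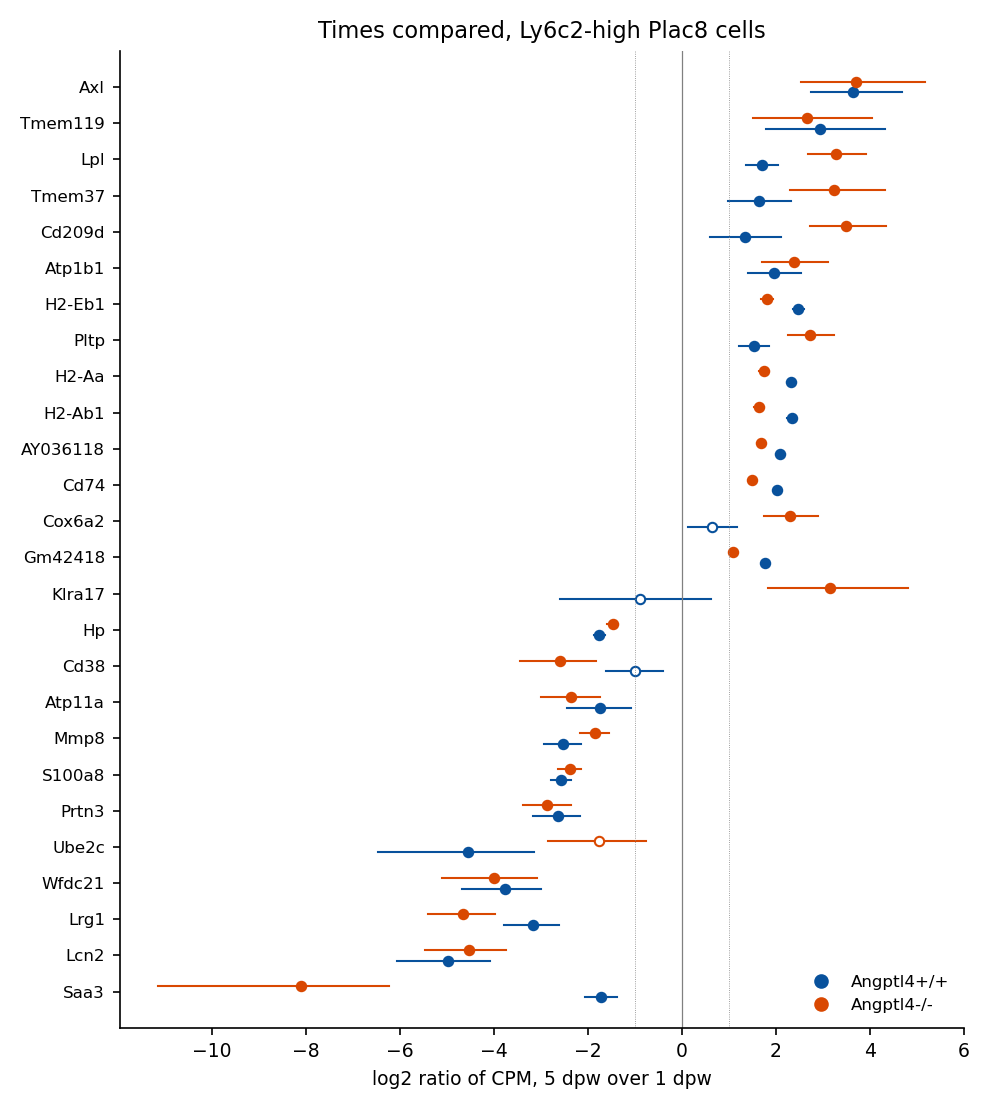
Log2 ratio of 5 over 1 dpw (horizontal axis) of the named genes in Angptl4+/+ and Angptl4-/- wounds, with 95% counting intervals as bars. Filled points were called and open points were not, and the dotted lines mark a 2-fold ratio. The MHC class II genes H2-Aa, H2-Ab1, H2-Eb1 and Cd74 lie between 1.50 and 2.47, while Lcn2 lies at -4.98 and -4.54.

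Some genes that differed between times were found mainly outside the Lyz2-positive cells, or differed in all cells of the libraries. Cox6a2, a muscle and plasmacytoid cell isoform of a cytochrome oxidase subunit, was at 28.4, 21.6, 44.4 and 106 CPM and was called higher in Angptl4-/- wounds (2.29), but had 0 UMIs in the Lyz2-positive cells of every library. Atp1b1, a sodium pump subunit, rose by 1.96 and 2.38 and had 0, 0, 21 and 0 UMIs in them. All 5 plasmacytoid markers were higher at 5 dpw in Angptl4-/- and 1 of 4 tested in Angptl4+/+ wounds, where the chosen cells of 5 dpw also held more Siglech-positive cells, with the counts per library given above. Klra17, an NK-receptor family lectin (3.49 to 30.9 CPM, 3.15), and Cd209d, a DC-SIGN relative (10.5 to 117 CPM, 3.49), were higher at 5 dpw in Angptl4-/- wounds, and in the Lyz2-positive cells stood at 13 and 33 UMIs there. Gm42418, which overlaps ribosomal RNA, was at 7113 and 7988 CPM at 1 dpw and 24121 and 17044 CPM at 5 dpw (1.76 and 1.09), and in the other cells at 10269, 10255, 31320 and 20899 CPM. AY036118, a transcript of the same kind, was at 571, 854, 2442 and 2749 CPM and in the other cells at 328, 403, 1354 and 1390 CPM. Both stood higher at 5 dpw in the chosen cells and in the other cells of the libraries, and their part in the other time differences was not tested.

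Interferon-induced genes had positive medians. Of the 24, against 1.97% and 2.63% of all genes higher in the 2 genotypes, 2 rose in Angptl4+/+ (Ifi44 and Mx1, median 0.57) and 3 in Angptl4-/- wounds (Irf7, Bst2 and Mx1, median 0.58 over 23 tested). In the Lyz2-positive cells alone the calls were 7 and 12, with medians of 0.80 and 1.05. In those of them without H2-Aa they were 2 of 22 (0.43) and, in Angptl4-/- wounds, 1 higher and 1 lower of 22 (0.20). Irf7, the transcription factor that amplifies interferon, was at 260.1, 180.0, 468 and 389 CPM (0.85 and 1.11), and Mx1, an antiviral GTPase, at 53.1, 57.2, 108 and 115 CPM (1.02 and 1.00). Among markers of Ly6C-low monocytes, Ace rose in both genotypes (1.07 and 2.94), and Spn, Cx3cr1 and Adgre4 were called in Angptl4-/- wounds alone, where Cx3cr1, the fractalkine receptor, went from 126 to 254 CPM (1.02) against 135 to 243 CPM (0.85) in Angptl4+/+ wounds. The log2 ratios of Cx3cr1 lie within each other's intervals although 1 was called and the other was not. In cells without H2-Aa, Cx3cr1 was called in both (1.09, 0.80 to 1.38, and 1.53, 1.20 to 1.87), and 3 of 7 and 3 of 5 tested markers of this list were higher. Over all genes tested in those cells, 81 of 4924 and 58 of 4439 were higher.

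The second comparison asks what differed between genotypes. At 1 dpw 21 of 6390 genes were higher in Angptl4-/- wounds (0.329%) and 64 lower (1.00%). At 5 dpw 44 of 6553 were higher (0.671%) and 43 lower (0.656%). Medians over all genes tested were -0.02 and -0.01. A pair of log2 ratios between genotypes gives 1 dpw before 5 dpw, with positive values where Angptl4-/- was higher. The 2 genotype comparisons have no library in common, but each shares its libraries with the comparisons between times. Higher at both times were Ifi202b, Gm10036, Hebp1, Adgrg5 and Emp1 (25.0% of the 20 called at 1 dpw and tested at both, 14.7% of 34 at 5 dpw). Lower at both were Eps8, Trem3, Spp1, Cd9 and Lamtor3 (11.1% of 45 at 1 dpw and 5 of 25 at 5 dpw). In the Lyz2-positive cells alone the calls were 25 higher and 59 lower at 1 dpw and 35 higher and 37 lower at 5 dpw. In those of them without H2-Aa, 37 were higher and 41 lower of 5382 at 1 dpw. At 5 dpw 34 were higher and 40 lower of 3686 there.

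Ifi202b, an interferon-inducible DNA-binding protein that antagonises inflammasome sensing, had 0 UMIs in the Angptl4+/+ libraries and 164 and 199 UMIs in the Angptl4-/- libraries at 1 and 5 dpw. This is 114 and 109.8 CPM, in 48 of 101 and 65 of 160 cells, so that both Angptl4-/- libraries lay above both Angptl4+/+ libraries. Against the floor of 3 UMIs per library it was at least 71.1-fold higher at 1 dpw and at least 63.4-fold higher at 5 dpw. Other members of its family on chromosome 1 did not move with it. Ifi203 was at 297 and 211 CPM at 1 dpw and 453 and 381 CPM at 5 dpw (-0.49 and -0.25), and Ifi204 at 500.4, 351, 603 and 487 CPM (-0.51 and -0.31). Of the 12 family members tested at each time, Ifi202b alone was called higher, and Ifi213 was called lower at 1 dpw. Ifi202b has no 31-base word of its transcript in common with Ifi203 or Ifi204. It lies at chr1:173962568-173982744 (GRCm38).

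Hebp1, a haem-binding protein that is also the source of a chemotactic peptide, was at 4.83 and 9.23 CPM in Angptl4+/+ and at 245 and 125 CPM in Angptl4-/- wounds at 1 and 5 dpw. It was found in 8 of 129 and 13 of 173 cells against 85 of 101 and 92 of 160. The ratios were 5.66 (4.72 to 6.81) and 3.76 (3.03 to 4.59) log2 units, and its level in Angptl4-/- wounds stood lower at 5 than at 1 dpw by a value of -0.97, short of the 2-fold call. Adgrg5, an adhesion G-protein-coupled receptor, was at 1.61 and 3.46 CPM against 42.5 and 52.4 CPM (4.73 and 3.92). Emp1, a tetraspan membrane protein, was at 147 and 103 CPM against 545 and 417 CPM (1.89 and 2.02). For each of these the 2 Angptl4-/- libraries lay above the 2 Angptl4+/+ libraries. Gm10036, a processed pseudogene that shares 76.6% of its 31-base words with Rpl11, had 1 UMI in each Angptl4+/+ library and 132 and 70 in the Angptl4-/- libraries, and its reads cannot be told apart safely from those of that ribosomal protein gene.

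Eps8, an actin-capping adaptor, was lower in Angptl4-/- wounds at both times. It was at 164 and 115 CPM in Angptl4+/+ and at 25.8 and 26.5 CPM in Angptl4-/- wounds, in 100 and 89 cells against 26 and 32 (-2.67, -3.20 to -2.17, and -2.12, -2.60 to -1.65). Trem3, an activating receptor of myeloid cells, was at 65.4 and 30.6 CPM against 23.7 and 10.5 CPM (-1.46 and -1.54). Cd9, a tetraspanin, was at 74.0 and 117 CPM against 29.3 and 45.2 CPM (-1.34 and -1.37), and Lamtor3, a scaffold of lysosomal signalling, at 67.0 and 75.5 CPM against 29.3 and 37.0 CPM (-1.19 and -1.03). For all 4 genes both Angptl4+/+ libraries lay above both Angptl4-/- libraries, with the narrowest gap for Trem3. Spp1 was at 354 and 249.7 CPM against 132 and 45.8 CPM (-1.42 and -2.45), but a single cell held 233 of its UMIs in the Angptl4+/+ library of 1 dpw and another held 326 in that of 5 dpw, so its ratios rest on few cells.

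Hebp1, Emp1, Eps8 and Cd9 lie on chromosome 6, at 135137522-135198022, 135362545-135383173, 137477245-137654876 and 125460266-125494791 (GRCm38). So do Klrk1, Klra17 and the antisense transcript Gm15987, which were called at 5 dpw. Chromosome 6 held 7 of the 85 genes called at 1 dpw (8.24% of calls against 4.87% of genes tested) and 13 of the 87 called at 5 dpw (14.9% against 4.82%). At 1 dpw chromosome 4 held 9 (10.6% against 5.87%), and 7 each lay on chromosomes 1 (8.24% against 6.12%), 7 (8.24% against 7.29%), 8 (8.24% against 5.32%) and 19 (8.24% against 3.90%), and at 5 dpw chromosome 8 held 10 (11.5% against 5.40%). Angptl4 itself lies on chromosome 17, at 33773750-33781830. The part of the source colony in these differences cannot be told apart from that of the Angptl4 allele.

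**Figure D5:**
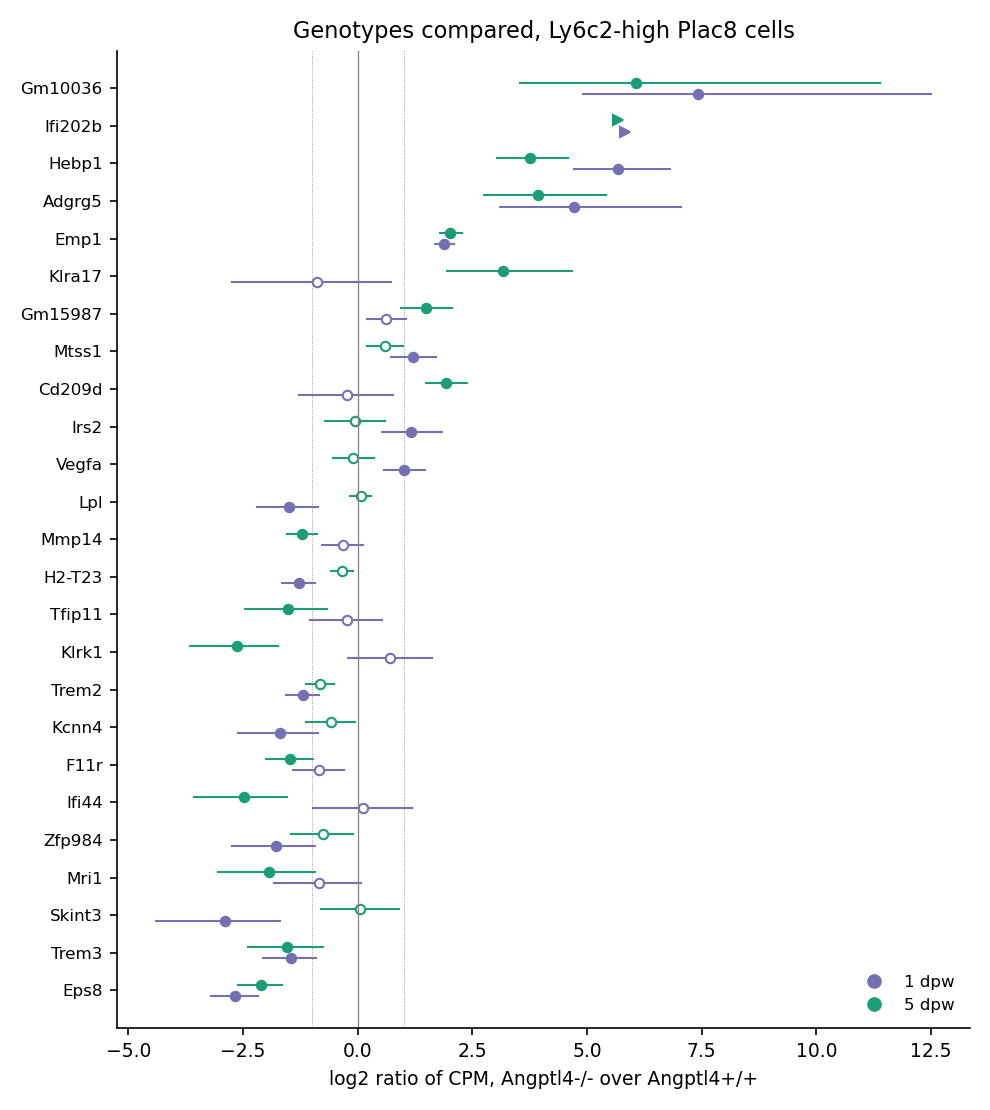
Log2 ratio of Angptl4-/- over Angptl4+/+ (horizontal axis) of the named genes at 1 and 5 dpw, with 95% counting intervals as bars. Filled points were called, open points were not, dotted lines mark a 2-fold ratio, and the triangle of Ifi202b stands for the lower bound of its interval. Hebp1 lies at 5.66 and 3.76 and Eps8 at -2.67 and -2.12.

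Some genotype differences were called at 1 dpw alone over all chosen cells. Trem2, a lipid-sensing receptor of macrophages, was at 147 and 64.2 CPM at 1 dpw (-1.20) and at 133 and 75.0 CPM at 5 dpw (-0.82), a like direction that was not called. In cells without H2-Aa it was called at 5 dpw as well (-1.31, -1.93 to -0.72). Lpl was at 51.5 and 18.1 CPM (-1.51) and at 168 and 175 CPM at 5 dpw (0.06), but in cells without H2-Aa it was called lower at 5 dpw too (-2.86, -3.52 to -2.26). H2-T23, the non-classical class I molecule Qa-1, was at 155 and 63.5 CPM (-1.29) and at 199 and 157 CPM at 5 dpw (-0.35). Kcnn4, a calcium-activated potassium channel, stood at -1.69 and -0.58, Zfp984 at -1.79 and -0.76 and Skint3 at -2.89 and 0.05. Vegfa, the angiogenic growth factor, was at 37.0 and 74.6 CPM (1.01) and at 51.3 and 48.0 CPM at 5 dpw (-0.10). Irs2, the insulin receptor substrate, was at 17.7 and 39.8 CPM (1.17), and Mtss1, a membrane-curving actin regulator, at 30.0 and 69.1 CPM (1.20), with -0.06 and 0.59 at 5 dpw. Whether the genotype ratio differed between the times was not tested for any of these genes.

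Other genes were called at 5 dpw alone. Klrk1, the activating receptor NKG2D, was at 40.9 and 6.62 CPM (-2.63) in 30 and 6 cells, and at 1 dpw it stood at 0.70. Ifi44, an interferon-induced protein, was at 34.0 and 6.07 CPM (-2.49), in 21 and 5 cells. Mmp14, a membrane-bound matrix metalloproteinase, was at 145 and 62.3 CPM (-1.22), with -0.15 and fewer than 50 UMIs in cells without H2-Aa, and F11r, the junctional adhesion molecule A, at 70.4 and 25.4 CPM (-1.47). Mri1, an enzyme of methionine salvage, stood at -1.93 and Tfip11, a splicing factor, at -1.52. On the higher side, Klra17 was at 3.46 and 30.9 CPM (3.16) in 5 and 25 cells and Cd209d at 31.1 and 117 CPM (1.92) in 11 and 23 cells. Gm15987 was at 21.9 and 61.2 CPM (1.48) and stood at 0.63 at 1 dpw.

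Signalling, inflammatory and metabolic lists had 0 or few calls between genotypes, beside 0.329% to 1.00% of all genes called in a direction, so that such counts say little about lists of this size. Classical monocyte markers gave 0 of 9 at either time (medians 0.11 and 0.19) and interferon-induced genes 0 of 23 and 1 of 24, Ifi44 (-0.39 and -0.20). In the Lyz2-positive cells alone, 3 of 23 interferon-induced genes were lower at 1 dpw and 1 of 24 at 5 dpw. Chemokine receptors gave 0 of 12 and 1 of 12, Il1r2. Myeloid transcription factors gave 0 of 17 at both times (-0.07 and 0.13), immediate early genes 0 of 15, glycolysis and hypoxia genes 0 of 17 and 0 of 18, and pattern recognition receptors 0 of 14. Kinases and factors that the study was concerned with gave 0 of 10 at both times. Cebpb, Spi1 and Zeb2, transcription factors of the monocyte lineage, had ratios between -0.14 and 0.13.

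Called chemokines included some found in few cells. Of 14 tested at 1 dpw, Cxcl10, an attractant of T cells, was higher in Angptl4-/- wounds (100.3 and 278 CPM, 1.47) but was found in 11 and 13 cells with up to 144 UMIs in 1 cell, and Ccl8 (-3.75) and Ccl5 (-1.60) were lower. Ccl8 was found in 4 and 2 cells. Of 13 tested at 5 dpw, Pf4 (1.99), Ccl5 (1.27) and Ccl4 (1.22) were higher, and 123 of the Pf4 UMIs lay in 1 cell, while Ccl4 was found in 50 and 58 cells. Some of these calls depended on which cells were summed. In the Lyz2-positive cells 0 chemokines were higher and 2 lower of 14 at 1 dpw and 3 higher and 0 lower of 13 at 5 dpw, the numbers over all chosen cells but for the 1 higher gene at 1 dpw, and in those without H2-Aa 4 were higher and 1 lower of 11 at 1 dpw and 1 higher and 1 lower of 9 at 5 dpw. Ccl4 had the opposite sign at 5 dpw in the cells without H2-Aa (-0.57, -1.09 to -0.05). Of 9 and 8 cytokines and growth factors, Vegfa was higher at 1 dpw and Areg at 5 dpw. Il1b, the inflammatory cytokine, was at 829, 1186, 1036 and 793 CPM and stood at 0.52 and -0.39.

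Macrophage maturation genes gave 4 lower of 18 at 1 dpw (Pltp, Spp1, Trem2 and Ms4a7, median -0.29) and 2 lower at 5 dpw (Spp1 and Mmp14, -0.30), and 0 higher. In cells without H2-Aa they were 1 higher and 2 lower of 17 at 1 dpw (0.05) and 1 higher and 4 lower of 15 at 5 dpw (-0.34). Ms4a7, a tetraspan membrane protein, stood there at 0.45 at 1 dpw and was higher at 5 dpw (2.36, 1.71 to 3.06). Pltp stood there at -1.13 (-2.50 to 0.07) at 1 dpw, but its 24 and 8 UMIs were too few for a call. Lipid handling genes gave 2 lower of 12 at 1 dpw (Lpl and Hilpda) and 0 of 13 at 5 dpw. Adhesion genes gave Cd9 and Spn lower of 13 at 1 dpw and Cd9 of 14 at 5 dpw. Alarmins gave S100a9 at 1 dpw (-1.64, with 403 of its Angptl4+/+ UMIs in 1 cell) and 0 of 8 at 5 dpw. Fc receptors gave Fcgr4 lower of 5 at 1 dpw and 0 at 5 dpw, uptake receptors 0 of 4 and 0 of 5, and antimicrobial genes 0 of 8 and Saa3 of 6. In cells without H2-Aa, 2 of 3 tested uptake receptors were lower at 5 dpw, C5ar1 (-1.57, -2.26 to -0.93) and Itgb5 (-1.28, -2.01 to -0.59). Over all genes tested in those cells, 40 of 3686 were lower. Oxidase and redox genes gave 0 of 11 and 1 lower of 12, iron and metallothionein genes Hebp1 alone at both times, and cell cycle genes Ube2c of 6 at 1 dpw (-1.28) and 0 of 5 at 5 dpw. Macrophage markers gave Spp1, Trem2 and Ms4a7 lower of 6 at 1 dpw (median -0.91) and Spp1 of 6 at 5 dpw (-0.50). In cells without H2-Aa these markers gave 2 lower of 6 (0.03) and then 1 higher and 2 lower of 5 (-0.42). Plasmacytoid markers gave Ccr9 lower of 3 at 1 dpw (-0.63) and Klk1 and Cox6a2 higher of 5 at 5 dpw (0.58).

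Between times, where 1.97% and 2.63% of all genes were higher and 2.42% and 1.72% lower, the lists not yet given differed in their calls. Chemokines rose in 2 and fell in 4 of 16 in Angptl4+/+ and rose in 4 and fell in 1 of 13 in Angptl4-/- wounds. In cells without H2-Aa the balance in Angptl4-/- wounds turned to 2 higher and 6 lower of 11 (median -0.77). Ccl4 stood there at -1.19 (-1.65 to -0.76) against 0.72 over all chosen cells. The balance over all genes tested in those cells turned as well, with 58 higher and 122 lower of 4439. Ccl24, an eosinophil attractant, was at 1.07, 0.70, 48.4 and 29.8 CPM, found in 8 and 6 cells at 5 dpw with 73 and 45 UMIs in 1 cell each. Chemokine receptors gave 0 of 13 and, in Angptl4-/- wounds, Cx3cr1 higher and Il1r2 lower of 12. Glycolysis genes gave 0 of 18 and 0 of 17 (medians -0.30 and -0.31; in Angptl4-/- cells without H2-Aa 3 of 17 were lower), the study's kinases 0 of 10 in each genotype, Fc receptors 0 of 5 in each genotype, and transcription factors Bhlhe40 lower in Angptl4+/+ and Irf8 higher and Nfil3 lower in Angptl4-/- wounds, of 17. Itgax, the integrin CD11c, rose in both genotypes (1.65 and 1.33) but was called in neither in the Lyz2-positive cells, and the other adhesion genes called were Vcan, lower in both, and Spn, higher in Angptl4-/- wounds, of 14. The Ifi200 family gave Ifi206 and Ifi213 higher in both genotypes and Ifi211 in Angptl4-/- wounds, with medians of 0.57 and 0.44.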

How the data were processed

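Live CD45+ cells of wounds in 4 conditions were run on the 10x Chromium 3' V3 kit, 1 library each. The authors deposited UMI counts per gene and cell, not normalised, and the submitters' processing notes name Cell Ranger 3.1.0, Seurat 3.0 and the mm10 build. The files held 20069 barcodes and 31053 genes, of which 30934 identifiers matched the GENCODE annotation of GRCm38. Cells passed (19827) if 200 or more genes were detected and mitochondrial genes gave no more than 10% of UMIs, and the deposited counts summed to 32962595, 27472052, 29746688 and 26981596 UMIs per library (Angptl4+/+ and Angptl4-/- at 1 dpw, then at 5 dpw).

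The rule on raw UMIs chose 563 cells. A further condition of the rule, and some genes that the naming rule or the lists hold, are not reported here. The members and the gene lists were chosen with earlier results of these data known. Counts were summed over the chosen cells of a library and divided by their total to give CPM. Ratios of 2 libraries were given exact conditional 95% intervals, shares Clopper-Pearson intervals and differences of shares Newcombe intervals. These intervals treat cells and UMIs as independent and cover no variation between animals. A gene with 0 UMIs was set against a floor of 3 UMIs in the library. Cells were thinned to 2000 UMIs where shares of cells with a UMI are compared.

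Named genes were, per comparison and direction, up to 8 called genes whose interval bound lay farthest from equality, among genes found in at least 10 cells with at most 20% of their UMIs from 1 cell, without rule genes, Angptl4, mitochondrial, Xist and Y-linked genes. The 12 leading genes of the cells, Ifi202b and Hebp1 and the list members with the most UMIs were added, and in the text Spp1, Cd9, Lamtor3, the single chemokines, the genes of the Siglech and Lyz2-low cells and the other genes outside this rule were picked after their values were seen. Listed genes Aldoa, Clec7a, Mnda, Pydc3 and Pydc4 were not analysed here.

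Doublets were looked for with Scrublet in Scanpy 1.11.5, whose own threshold marked 6 of 19827 cells and so did not work. Leaving out the 5% of cells with the highest scores was tried instead, which removed 2, 1, 5 and 1 of the chosen cells. Calculations used Python 3.11.15, NumPy 2.4.6, SciPy 1.17.1, pandas 2.3.3 and Matplotlib 3.10.9, and the script was tested on simulated counts. Alternatives were other UMI thresholds of the rule, a stricter cell filter, thinning, other count minimums, mean CPM over single cells and centring on the median gene. After seeing the data, leaving out the Siglech-positive and Lyz2-low cells, keeping only cells without H2-Aa and the doublet scores were added.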

Additional observations from a re-analysis of the deposited data

Results flagged for a closer look

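In the Ly6c2-high Plac8 cells 2 genes were called between genotypes in opposite directions at the 2 times. Ccl5, a chemokine of T cells and NK cells, was at 91.2 and 30.0 CPM in Angptl4+/+ and Angptl4-/- wounds at 1 dpw and at 49.0 and 118 CPM at 5 dpw, with log2 ratios of -1.60 and 1.27. It was found in 6, 3, 9 and 8 cells, and 131 of 170, 30 of 43, 36 of 85 and 144 of 214 of its UMIs lay in a single cell. Timp1, the inhibitor of matrix metalloproteinases, was at 25.2 and 88.6 CPM at 1 dpw and at 34.0 and 14.3 CPM at 5 dpw, with log2 ratios of 1.81 and -1.25. It was found in 14, 22, 18 and 11 cells, with up to 38 of the 127 UMIs of the Angptl4-/- library of 1 dpw in a single cell. The difference between the times was not tested for either gene, since each condition had 1 library, and the part of single cells in it was not tested.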

How the results depend on the processing

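No paired analysis was possible because each condition had 1 library, so no replicate numbers pair samples, and no result comes from a test between conditions. An additive fit of genotype and day over the 4 libraries was not run. The member share moved most when cells under 4000 UMIs were left out, the others thinned to that depth and the thresholds lowered, a setting that changes depth, thresholds and the number of cells at once. The difference between 5 and 1 dpw was then 3.59 points in Angptl4+/+ and 5.14 points in Angptl4-/- wounds, and the genotype difference at 5 dpw was 0.809 points, with the sign opposite to that of the untouched counts, whose interval included 0. Another alternative, chosen after seeing the data, was the share of cells outside the neutrophil definition above. The genotype difference at 5 dpw was then 0.929 points and that between times in Angptl4-/- wounds 2.62 points. The number of called genes followed the count minimum. With at least 200 UMIs over the pair of libraries, 13 genes were called between genotypes at 1 dpw and 14 at 5 dpw, and 74 and 78 between times in Angptl4+/+ and Angptl4-/- wounds, against 85, 87, 292 and 273 with 50 UMIs. With no minimum the numbers were 312, 331, 672 and 668. The share of called genes that were higher in Angptl4-/- wounds was 64.3% with 200 UMIs against 50.6% at 5 dpw, and 35.9% with no minimum against 24.7% at 1 dpw. The number of genes tested differs between these settings, and the cause of the shift in shares was not tested. Over 64 pairs of a comparison and a gene named for it by the rule on the largest called ratios, the alternatives gave 687 values, of which 607 stayed within the counting interval and 80 lay outside it, with none reversed. The 607 include 64 values from leaving out the cells that Scrublet marked, none of which was a chosen cell, so that these could not move. Of these 80, 20 came from keeping only cells without H2-Aa, 16 from thinning and 12 from leaving out the Siglech-positive and Lyz2-low cells, and the cause was not tested. Of the 607, 32 came from cells without H2-Aa and 47 from leaving out the Siglech-positive and Lyz2-low cells. In both settings some of the 64 pairs gave no value and are in neither the 607 nor the 80. H2-Aa, at 0 UMIs in all cells kept in the first of these settings, had no ratio there. Leaving out cells with high doublet scores moved none. Outside these pairs Ccl4, called at 1.22 between genotypes at 5 dpw, stood at -0.57 in cells without H2-Aa. With 1 library per condition no value has a replicate check, and genes under 50 UMIs were left out by choice.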
